A study of Mus musculus with 4 samples.

Results

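The MHC class II presentation genes were followed across mouse CT26 tumours that differed in IL-34 and in treatment with an antibody against PD-1. They were taken by gene symbol and number 10 of the 22484 symbols used. H2-Aa, H2-Ab1 and H2-Eb1 encode chains of the class II molecules, and Cd74 encodes the invariant chain. H2-DMa, H2-DMb1 and H2-DMb2 encode chains of H2-DM, H2-Oa and H2-Ob those of H2-O, and Ciita encodes the class II transactivator. CT26 is a colon carcinoma line of BALB/c mice, and the labels give BALB/c as the strain background of every library. Messenger RNA was profiled by RNA-seq in 4 groups with 1 library each: IL-34-overexpressing CT26 tumours treated with an anti-PD-1 antibody (αPD-1 mAb), IL-34-overexpressing untreated tumours, IL-34-deficient tumours treated with the same antibody, and IL-34-deficient untreated tumours. IL-34 is a cytokine that binds the CSF-1 receptor of macrophages, and PD-1 is a receptor that restrains T cells. Il34 itself was at 104 FPKM in treated and in untreated overexpressing tumours, and at 3.02 FPKM in treated and 3.52 FPKM in untreated deficient tumours. Both lines had been altered in IL-34, and tumours of the parental line were not analysed here. The number of clones behind each line, the number of mice behind each library and their age are not stated in the labels.

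Class II molecules present peptides taken up from outside the cell to CD4 T cells. They are made by macrophages, dendritic cells and B cells and, under interferon-γ, by many other cells. The invariant chain occupies the groove of a new α and β chain pair and takes it to endosomes, where proteases cut it down and H2-DM exchanges the remaining fragment for an antigenic peptide. H2-O restrains H2-DM, mainly in B cells. CIITA does not bind DNA itself. It is recruited by factors that sit on paired boxes upstream of class II genes, the X box (bound by the RFX complex) and the Y box (bound by NF-Y), and its own amount sets how much of these genes is transcribed.

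These paired boxes are shown first, because they are what the class II genes share upstream and where CIITA acts. RefSeq promoter windows (build GRCm38.p6) were found for 7 members, and for 6 of them the window began within 500 bases of the start of the deposited gene model. The windows found for H2-DMa lay more than that distance upstream of its model and were not searched, and none was at hand for H2-Ab1, Cd74 or Ciita. Each stretch below is written 5′ to 3′ on the strand of its gene, and the capitals mark AAC, the end of the X box core, and ATTGG, the Y box read on the gene's strand.
H2-Aa: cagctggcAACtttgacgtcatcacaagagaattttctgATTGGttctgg
H2-Eb1: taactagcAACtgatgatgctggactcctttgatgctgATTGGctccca
H2-DMb1: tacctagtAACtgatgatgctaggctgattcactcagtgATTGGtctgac
H2-DMb2: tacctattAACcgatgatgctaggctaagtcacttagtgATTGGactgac
H2-Oa: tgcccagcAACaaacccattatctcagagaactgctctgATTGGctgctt
H2-Ob: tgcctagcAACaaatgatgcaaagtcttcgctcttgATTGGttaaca

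The stretches lie on chromosome 17, at chr17:34287861-34287910 for H2-Aa on the minus strand and, on the plus strand, at chr17:34305770-34305818 for H2-Eb1, chr17:34153091-34153140 for H2-DMb1, chr17:34145120-34145169 for H2-DMb2, chr17:34092297-34092346 for H2-Oa and chr17:34238812-34238858 for H2-Ob. The bases between AAC and ATTGG numbered 28 in H2-Aa, H2-DMb1, H2-DMb2 and H2-Oa, 27 in H2-Eb1 and 25 in H2-Ob. AAC began 74 to 121 bases before the annotated transcription start. The pair, searched as AAC, 25 to 28 further bases and ATTGG on both strands of the 250 upstream bases, was in 6 of 6 member windows and in 2.09% of all 32851 windows. The letters and spacing of the pair were chosen after these windows had been read, so the count of members is a description. Among single motifs, CCAAT, the complement of ATTGG and so part of the same pair, was in 6 of 6 member windows and 33.8% of all windows. GCAAC, which overlaps the AAC of the pair, was in 4 of 6 and 29.9%. H2-DMb1 and H2-DMb2 had GTAAC and TTAAC in its place. A core of interferon response elements, GAAA, any 2 bases and GAAA, was in 0 of 6 and 2.98%. These are sequences of the C57BL/6J reference, not of BALB/c.

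**Figure D1:**
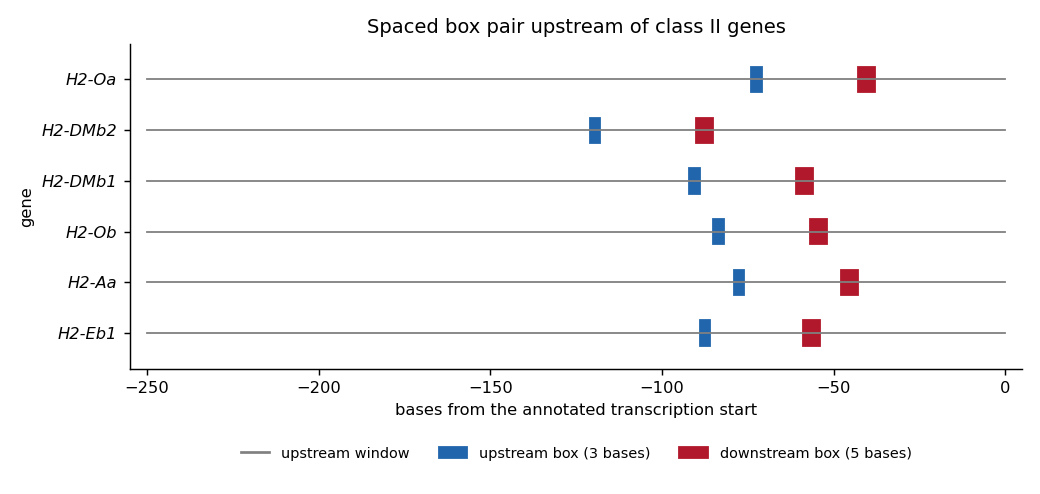
Positions of the paired boxes in the 250 bases before the annotated transcription start (x axis, bases) of the 6 class II genes with a usable window; blue marks AAC and red marks ATTGG. The boxes lie 25 to 28 bases apart in every row, and AAC begins between 121 (H2-DMb2) and 74 (H2-Oa) bases before the start.

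In the deficient line, treated tumours had more class II RNA than untreated tumours, and in the overexpressing line treated tumours had less. The untreated tumours of the lines were close to each other. Levels are in FPKM as the authors deposited them, fragments scaled to transcript length and to the library. A log2 ratio is taken of FPKM + 1, and a gene is counted as past the size rule where that ratio is at least 1 in size and it reaches 1 FPKM in a library of the comparison. With 1 library a group there is no spread among replicates and no test, so every difference below is between single libraries. In bulk tumour RNA, fewer cells of a type and less RNA per cell cannot be told apart.

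With anti-PD-1 in the overexpressing line, 0 of the 10 members passed the size rule, against 0.28% of all 11447 genes that were lower by that size and 0.0524% that were higher. The members lay below 0 all the same: 9 of 10 were lower in the treated library, among them the 8 with at least 1 FPKM, while 50.9% of all genes were lower. The median log2 ratio of those 8 was −0.67, beside −0.0023 over all genes. With anti-PD-1 in the deficient line, 8 of the 10 passed the size rule on the higher side, against 1.49% of all 11702 genes, and 0 on the lower side, against 0.35%. The median there was 1.19 over 9 members, beside −0.06 over all genes, and H2-Oa was among the 9 only through the treated library. Between the treated libraries, 8 of 10 were lower by size in the overexpressing line, against 2.37% of 11722 genes, and 0 were higher, against 0.392%, with a median of −1.96 beside 0.04. Between the untreated libraries, 0 of 10 passed the rule on either side, against 0.096% of 11453 genes lower and 0.122% higher, with a median of −0.13 beside −0.03. The difference of the responses, overexpressing minus deficient, was below −1 for 8 of 10 members, against 2.18% of 11800 genes. These comparisons share libraries, so their values are not independent of each other.

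**Figure D2:**
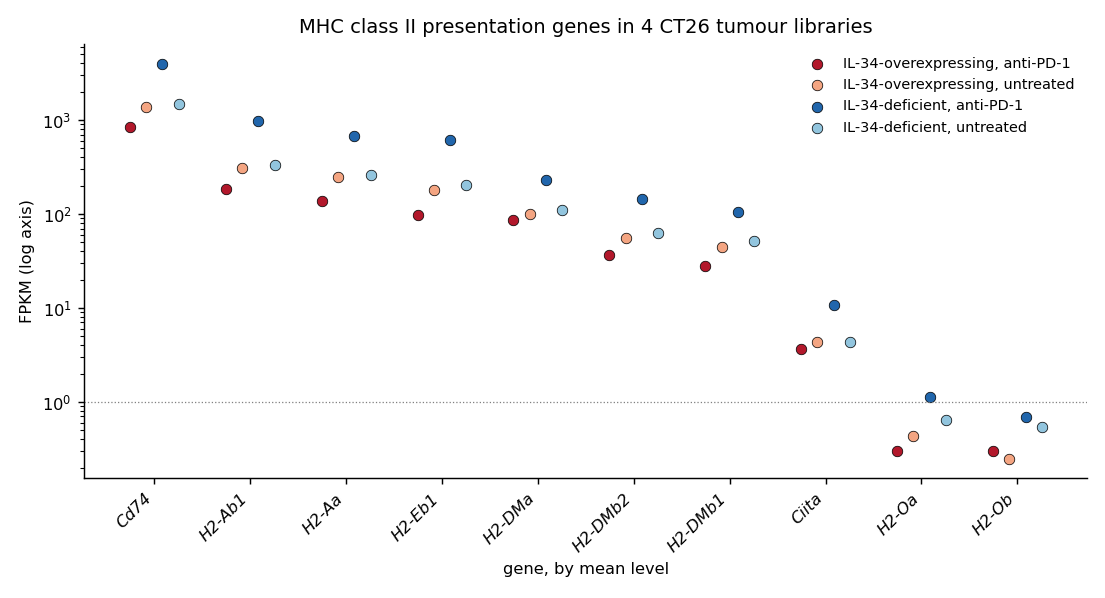
Level of each class II gene (y axis, FPKM on a log scale) in the 4 libraries, 1 point a library, with genes ordered by mean level and a dotted line at 1 FPKM. The treated deficient library is the highest for every gene, and the treated overexpressing library is the lowest for every gene except H2-Ob, whose lowest value is 0.249 FPKM in the untreated overexpressing library.

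The chains of the A molecule come first. H2-Aa encodes its α chain (mm10 chromosome 17, 34282751 to 34287771). It was at 138 FPKM in treated and 248 FPKM in untreated overexpressing tumours, and at 668 FPKM in treated and 260 FPKM in untreated deficient tumours. H2-Ab1 encodes its β chain (chromosome 17, 34263227 to 34269418). It was at 183 and 310 FPKM in treated and untreated overexpressing tumours and at 976 and 332 FPKM in treated and untreated deficient tumours. Both were lowest in the treated overexpressing library and highest in the treated deficient library, with the untreated libraries between them and within 1.07-fold of each other. In the overexpressing line the treated library was 44.5% lower for H2-Aa and 40.9% lower for H2-Ab1. In the deficient line it was 2.57-fold higher for H2-Aa and 2.94-fold higher for H2-Ab1. The FPKM of H2-Aa over that of H2-Ab1 in the same library stayed between 0.685 and 0.799.

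H2-Eb1 encodes the β chain of the E molecule (chromosome 17, 34305867 to 34316674). Its levels were 98.7 FPKM in treated and 179 FPKM in untreated overexpressing tumours, and 610 FPKM in treated and 202 FPKM in untreated deficient tumours. It had the widest range of the members past 1 FPKM. It was 1.82-fold lower with treatment in the overexpressing line, rank 41 from the lowest log2 ratio among 11447 genes. It was 3.01-fold higher with treatment in the deficient line, rank 46 from the highest among 11702 genes. Between the treated libraries it was 6.18-fold lower in the overexpressing line. Its partner is not a member. The α chain gene of E is broken in the C57BL/6 reference and is listed there as the pseudogene H2-Ea-ps, while BALB/c carries a working copy. H2-Ea-ps (chromosome 17, 34342212 to 34344645) was at 210 and 356 FPKM in treated and untreated overexpressing tumours and at 919 and 376 FPKM in treated and untreated deficient tumours, so it followed the same order of libraries as H2-Eb1. H2-Eb2, a further β chain gene beside it, was at 0.0137 FPKM or less in every library.

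Cd74 encodes the invariant chain (chromosome 18, 60803849 to 60812652) and was the most abundant member in each library. Its levels were 852 FPKM in treated and 1378 FPKM in untreated overexpressing tumours, and 3978 FPKM in treated and 1498 FPKM in untreated deficient tumours. Among all symbols of a library it ranked 99 and 68 in treated and untreated overexpressing tumours, and 4 and 66 in treated and untreated deficient tumours. Cd74 alone made up 0.814% of the summed FPKM of the treated deficient library, and the 10 members together 1.38%. In the untreated deficient library the members made up 0.464%, and in the treated and untreated overexpressing libraries 0.275% and 0.443%. Set against the summed FPKM of the A and E chains, H2-Ea-ps included, Cd74 was 1.35 and 1.26 in treated and untreated overexpressing tumours and 1.25 and 1.28 in treated and untreated deficient tumours. The invariant chain and the chains it accompanies thus kept nearly the same proportion while their summed level spanned 629 to 3173 FPKM.

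H2-DM is a pair of H2-DMa with H2-DMb1 or H2-DMb2, and its genes differed from the peptide-binding chains in how far they moved. H2-DMa (chromosome 17, 34135671 to 34138535) was at 86.6 FPKM in treated and 101 FPKM in untreated overexpressing tumours, and at 231 FPKM in treated and 111 FPKM in untreated deficient tumours. H2-DMb1 (chromosome 17, 34153191 to 34160229) was at 27.7 and 44.2 FPKM in treated and untreated overexpressing tumours and at 104 and 51.1 FPKM in treated and untreated deficient tumours. For H2-DMb2 (chromosome 17, 34145416 to 34151095) the values were 36.2 and 55.5 FPKM, and 144 and 62.4 FPKM, in the same order. The order of the libraries was that of the chains for all 3 genes. H2-DMb1 and H2-DMb2 are close copies, and reads could have been divided between them, so their separate values are uncertain. Summed, they do not depend on that division.

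With treatment in the overexpressing line, H2-DMa had a log2 ratio of −0.22, at rank 646 from the lowest of 11447 genes, while H2-DMb1 and H2-DMb2 had −0.66 and −0.60, at ranks 72 and 85. The FPKM of H2-DMa was 1.35 times the summed H2-DMb1 and H2-DMb2 in that treated library and 1.01 times in the untreated one. In treated and untreated deficient tumours it was 0.932 and 0.980 times. H2-DMa also stood at 13.8% of the summed A and E chains in treated and 9.22% in untreated overexpressing tumours, and at 7.28% in treated and 9.50% in untreated deficient tumours. The share was thus highest in the library with the least class II RNA and lowest in the library with the most. None of these ratios has a replicate.

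The genes of H2-O, the restraint on H2-DM, had the lowest levels of the members. H2-Oa (chromosome 17, 34092379 to 34095234) was at 0.303 FPKM in treated and 0.430 FPKM in untreated overexpressing tumours, and at 1.13 FPKM in treated and 0.635 FPKM in untreated deficient tumours. H2-Ob (chromosome 17, 34238905 to 34245908) was at 0.299 and 0.249 FPKM in treated and untreated overexpressing tumours and at 0.681 and 0.538 FPKM in treated and untreated deficient tumours. H2-Ob was thus the one member whose value was higher in the treated library of both lines. H2-Oa was at 0.350% to 0.571% of the FPKM of H2-DMa. Levels of this size rest on few fragments, and without counts no interval could be given. The B cell markers, a cell type in which H2-O is best known, were low as well: 10 of 10 were in the table, and their summed FPKM was 3.20 and 3.64 in treated and untreated overexpressing tumours and 7.23 and 3.56 in treated and untreated deficient tumours.

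Ciita, the master regulator (chromosome 16, 10480072 to 10527564), was at 3.61 FPKM in treated and 4.31 FPKM in untreated overexpressing tumours, and at 10.9 FPKM in treated and 4.35 FPKM in untreated deficient tumours. In the overexpressing line it was 1.19-fold lower with treatment, while the summed A and E chains were 1.74-fold lower. In the deficient line it was 2.50-fold higher with treatment, while the summed chains were 2.71-fold higher. The summed chains over Ciita were therefore 174 in treated and 254 in untreated overexpressing tumours, and 292 in treated and 269 in untreated deficient tumours. Of the members past 1 FPKM in the overexpressing line, Ciita (log2 ratio −0.20 with treatment) and H2-DMa were the nearest to 0. Ciita is transcribed from several promoters, which the table gives as 1 value.

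**Figure D3:**
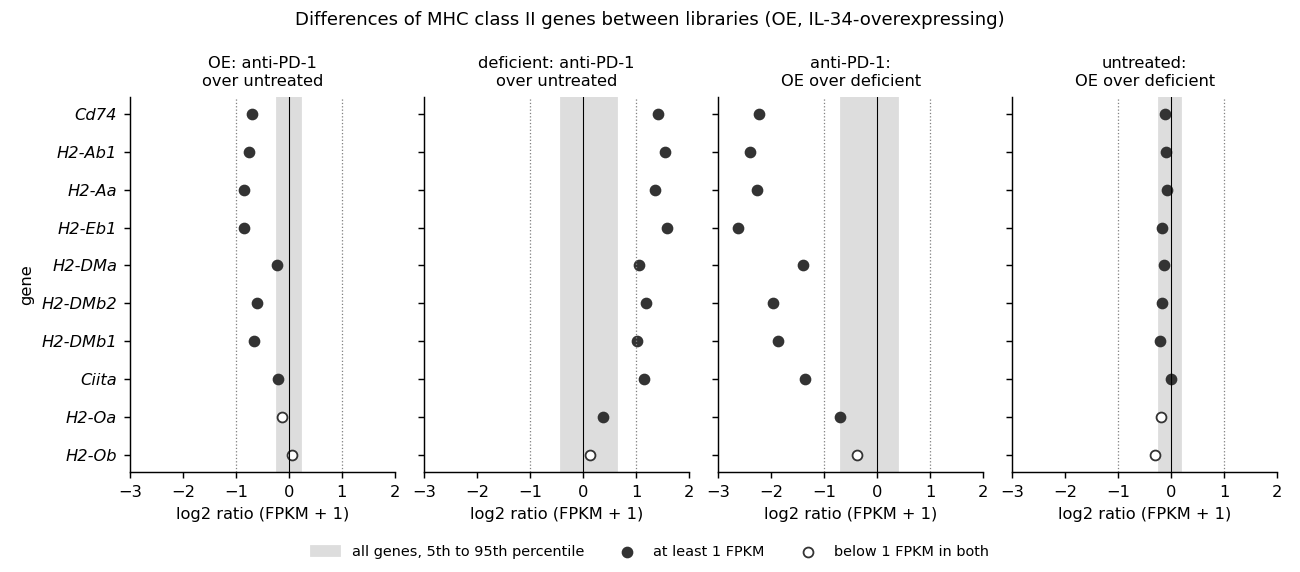
Log2 ratio of FPKM + 1 (x axis) of each class II gene in the 4 pairwise comparisons; the grey band spans the 5th to the 95th percentile of all genes, dotted lines mark the size rule, and open points are genes below 1 FPKM in both libraries. In the deficient line 8 genes lie to the right of 1, between the treated libraries 8 lie to the left of −1, and in the overexpressing line the 6 genes other than H2-DMa, Ciita, H2-Oa and H2-Ob lie between −0.86 and −0.60.

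The factors that hold CIITA on the promoter showed no difference of this size. Of 10 genes of the RFX complex, NF-Y, CREB and their coactivators, 0 passed the size rule in any of the 4 comparisons. Over all genes, 0.332% passed with treatment in the overexpressing line, 1.84% in the deficient line and 2.76% between the treated libraries. Between the untreated libraries, 0.122% passed on the higher and 0.096% on the lower side. A count of 0 in this or another short list below is close to these shares. Their median log2 ratio was 0.04 with treatment in the overexpressing line and −0.0056 in the deficient line. Rfx5, a subunit of the RFX complex, was at 4.18 and 3.96 FPKM in treated and untreated overexpressing tumours and at 5.31 and 4.18 FPKM in treated and untreated deficient tumours.

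Genes that induce Ciita lay mostly above 0 with treatment in the deficient line, 9 of 11 of them, and nearer to 0 in the overexpressing line. Irf4 was among the 11 only through the treated deficient library, at 1.60 FPKM beside 0.533 FPKM untreated, so it could only count as above 0. Of the 11, 1 passed the size rule on the higher side in the deficient line, against 1.49% of all genes. The median was 0.46, beside −0.06 over all genes. In the overexpressing line 0 passed, with a median of 0.09 over the 10 that reached 1 FPKM. The gene past it was Ifng, which encodes interferon-γ, at 11.8 FPKM in treated and 4.30 FPKM in untreated deficient tumours. In treated and untreated overexpressing tumours Ifng was at 3.16 and 2.70 FPKM. Its log2 ratio there, 0.17, lay within the 5th to 95th percentile of all genes (−0.23 to 0.22). Irf1, a transcription factor that acts on a Ciita promoter, was at 108 and 102 FPKM in treated and untreated overexpressing tumours and at 166 and 104 FPKM in treated and untreated deficient tumours. The repressors of Ciita or class II held 7 genes, of which 0 passed the rule with treatment in either line. Il10 among them was at 0.507 and 0.589 FPKM in treated and untreated overexpressing tumours and at 2.31 and 0.979 FPKM in treated and untreated deficient tumours.

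Endosomal processing genes were measured with 10 members, of which 0 passed the size rule with treatment in either line. Of all genes, 0.332% passed in the overexpressing and 1.84% in the deficient line. Ctss, the cathepsin that makes the last cuts in the invariant chain, was at 512 and 588 FPKM in treated and untreated overexpressing tumours and at 1116 and 597 FPKM in treated and untreated deficient tumours. Between the treated libraries its log2 ratio was −1.12, the one member of this list past the rule there, against 2.37% of all genes lower by size. Cd74 over Ctss was 1.66 and 2.35 in treated and untreated overexpressing tumours and 3.56 and 2.51 in treated and untreated deficient tumours. Ifi30, which reduces disulphide bonds of antigens, was at 174 and 172 FPKM, and at 244 and 180 FPKM, in the same order. Of 4 genes of class II turnover, 0 passed the rule in any comparison, against at most 2.76% of all genes. March1, a ligase that removes class II from the surface, was at 4.87 and 5.78 FPKM in treated and untreated overexpressing tumours and at 9.35 and 5.37 FPKM in treated and untreated deficient tumours. With treatment in the deficient line, March1 was the 1 turnover gene above 0. The other 3 lay below 0, and the list median was −0.06.

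Class I presentation, the route to CD8 T cells, was set beside the class II genes. None of its 13 genes passed the size rule in any of the 4 comparisons, against at most 2.76% of all genes. In the overexpressing line its median log2 ratio was 0.03, beside −0.0023 over all genes. There 8 of 13 genes lay above 0, while 50.9% of all genes lay below 0. In the deficient line the median was 0.48, beside −0.06 over all genes, with 13 of 13 above 0. B2m, the light chain of class I, was at 3794 and 4175 FPKM in treated and untreated overexpressing tumours and at 5418 and 4523 FPKM in treated and untreated deficient tumours. Nlrc5, the class I counterpart of Ciita, was at 10.9 and 9.62 FPKM, and at 17.3 and 9.98 FPKM, in the same order. H2-Ab1 over B2m was 0.0483 and 0.0742 in treated and untreated overexpressing tumours and 0.180 and 0.0733 in treated and untreated deficient tumours.

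**Figure D4:**
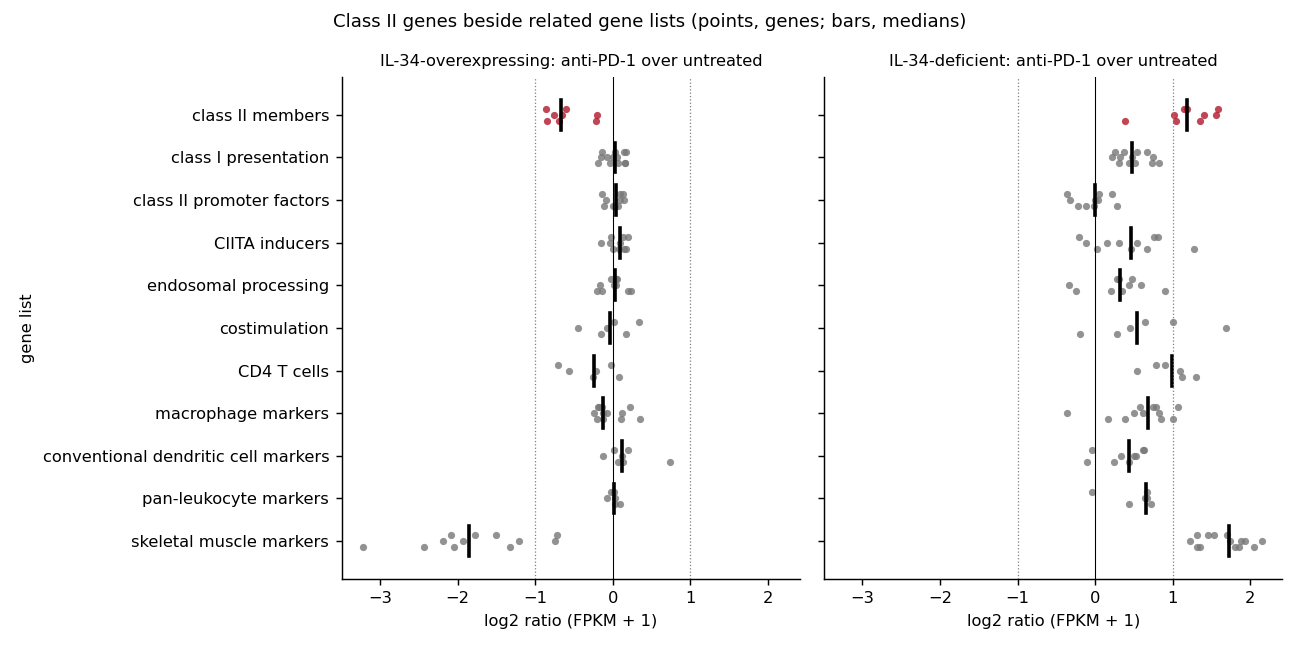
Log2 ratio of FPKM + 1 with anti-PD-1 (x axis) of single genes (points) and the list median (bar) for the class II members in red and for related gene lists in grey, overexpressing line on the left and deficient line on the right; genes below 1 FPKM in both libraries are left out. In the overexpressing line the class II median is −0.67, and apart from skeletal muscle (−1.85) the other medians shown lie between −0.24 and 0.12.

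Leukocyte and macrophage markers had medians above 0 with treatment in the deficient line and near 0 in the overexpressing line. Of 6 pan-leukocyte markers, 0 passed the size rule in either line, with medians of 0.02 in the overexpressing and 0.65 in the deficient line. Ptprc, the leukocyte antigen CD45, was at 24.4 and 22.7 FPKM in treated and untreated overexpressing tumours and at 40.4 and 24.0 FPKM in treated and untreated deficient tumours. Of 12 macrophage markers, 0 passed in the overexpressing line, with a median of −0.12. In the deficient line 2 passed on the higher side, Mertk and Emr1 (now Adgre1, the F4/80 antigen), against 1.49% of all genes. The median was 0.68. Cd68, a lysosomal protein of macrophages, was at 90.1 and 94.9 FPKM in treated and untreated overexpressing tumours and at 128 and 90.1 FPKM in treated and untreated deficient tumours. The summed macrophage markers ranged from 4238 to 4712 FPKM in the treated overexpressing and both untreated libraries and reached 7881 FPKM in the treated deficient library. Of the 12 conventional dendritic cell markers, 0 passed in either line, with medians of 0.12 in the overexpressing and 0.43 in the deficient line. In the deficient line 7 of the 9 that reached 1 FPKM lay above 0 and 2 below. Xcr1, Clec9a and Dpp4 were among the 9 only through the treated library, so they could only count as above 0. Xcr1 and Clec9a, which mark cross-presenting cells, were at 1.78 FPKM or less throughout. At such levels the added 1 makes log2 ratios smaller. Langerhans cell markers summed to 2.48 FPKM or less, with Cd207 at 0.252 FPKM or less in every library. Of 6 plasmacytoid dendritic cell markers, 0 passed in the overexpressing line. In the deficient line 3 were higher by size (Siglech, Klk1 and Ly6c2), against 1.49% of all genes. Siglech, a lectin of these cells, was at 2.49 FPKM or less, and Ly6c2 is also a monocyte gene. Of 6 lymph node stroma markers, Cxcl13 was higher and Lyve1 lower by size with treatment in the deficient line. Over all genes, 1.49% were higher and 0.35% lower by that size. Among 10 housekeeping genes, 0 passed in any of the 4 comparisons.

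Set against Ptprc, Cd68 and Csf1r within each library, H2-Ab1 was lowest in the treated overexpressing and highest in the treated deficient tumours. H2-Ab1 over Ptprc was 7.52 in treated and 13.6 in untreated overexpressing tumours, and 24.2 in treated and 13.8 in untreated deficient tumours. H2-Ab1 over Cd68 was 2.04 and 3.27 in treated and untreated overexpressing tumours and 7.65 and 3.68 in treated and untreated deficient tumours. Over Csf1r, the receptor of IL-34, it was 2.61 and 3.89, and 8.29 and 4.24, in the same order. Per unit of Cd68, H2-Ab1 in the treated library was thus 1.61-fold lower in the overexpressing line and 2.08-fold higher in the deficient line. Ciita over Cd68 was 0.0401 and 0.0454 in treated and untreated overexpressing tumours and 0.0852 and 0.0483 in treated and untreated deficient tumours. As a percent of Ptprc, Ciita was 14.8% and 19.0%, and 26.9% and 18.1%, in the same order, so the untreated overexpressing tumours lay above the untreated deficient ones. The result depends on the marker. With treatment in the deficient line, Cd68 and Csf1r had log2 ratios of 0.50 and 0.58, below the macrophage marker median of 0.68. Emr1 and Mertk had 1.01 and 1.07, and 1 of the 12 markers, Cd14, was below 0. Over a marker that rose further, H2-Ab1 and Ciita would rise less. A single marker does not stand for all class II cells, and the part of cell numbers in these differences was not tested.

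**Figure D5:**
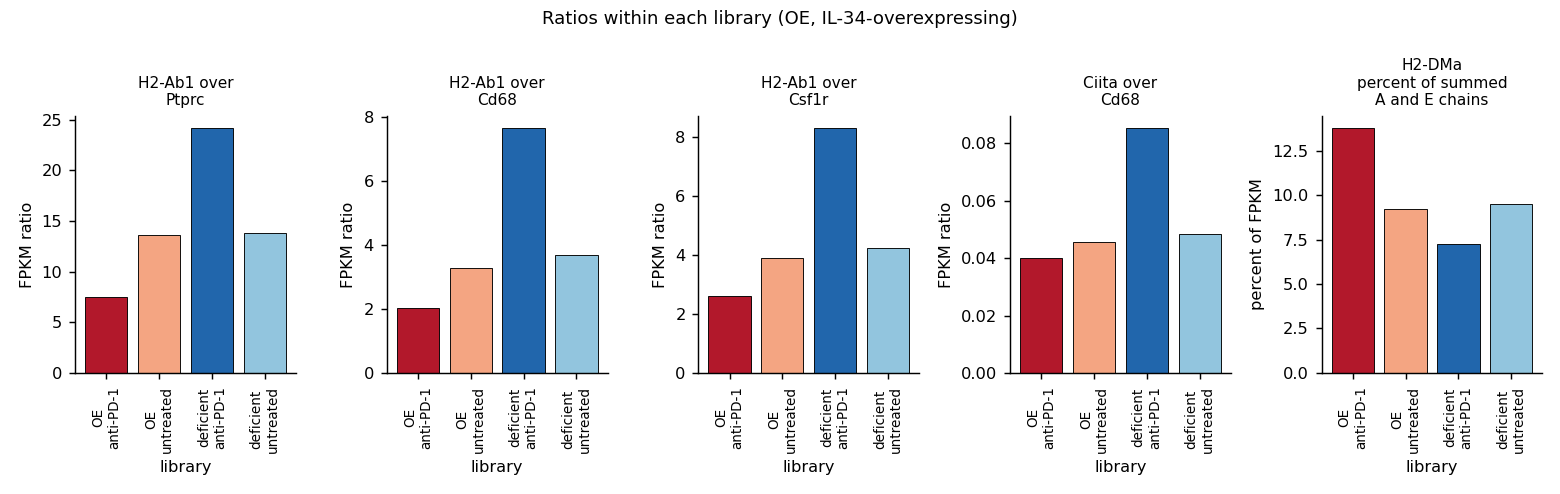
FPKM ratios within each of the 4 libraries (y axis, ratio or percent, from 0): H2-Ab1 over Ptprc, Cd68 and Csf1r, Ciita over Cd68, and H2-DMa as a percent of the summed A and E chains. H2-Ab1 over each marker is lowest in the treated overexpressing library and highest in the treated deficient library, while the share of H2-DMa runs the other way.

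CD4 T cells, which read class II, were measured with 8 of the 9 listed genes. In the overexpressing line 0 passed the size rule with treatment, with a median of −0.24. In the deficient line Cd4, Cd3e and Cd3g passed, 3 genes, on the higher side, against 1.49% of all genes. The median was 0.998 over the 6 genes that reached 1 FPKM. Cd3e and Cd3g encode CD3 chains that CD8 T cells carry too. Icos, Foxp3 and Cd40lg did not pass, at log2 ratios of 0.54, 0.37 and 0.02 there, and Foxp3 and Cd40lg stayed below 1 FPKM in every library. Cd8b1, a chain of the CD8 receptor, was at 4.29 and 5.73 FPKM in treated and untreated overexpressing tumours and at 20.7 and 8.16 FPKM in treated and untreated deficient tumours. Cd4 itself was at 1.52 and 1.38 FPKM in treated and untreated overexpressing tumours and at 4.57 and 1.57 FPKM in treated and untreated deficient tumours. Among costimulatory and inhibitory ligands of presenting cells, 0 of 6 passed in the overexpressing line. In the deficient line 2 of 6 passed on the higher side, against 1.49% of all genes. These were the PD-1 ligands Pdcd1lg2, at 8.18 and 1.84 FPKM in treated and untreated deficient tumours, and Cd274, at 46.8 and 22.8 FPKM. Of the ligands of CD28, Cd86 was at 8.20 and 5.72 FPKM there, and Cd80, lower with treatment, at 3.10 and 3.70 FPKM.

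The genes with the profile most like the median of the 9 members that reached 1 FPKM were sought among 8978 other genes. These had at least 5 FPKM in at least 1 library. Likeness was the Euclidean distance between log2 profiles centred over the 4 libraries. The 10 nearest were Pgam2, Tnni2, H2-Ea-ps, Klrc1, Cd3e, Dnase1l3, Lag3, Cd8b1, Cd3g and Nkg7, at distances from 0.122 to 0.285. Pgam2 and Dnase1l3 reached 5 FPKM only in the treated deficient library, at 7.07 and 8.12 FPKM. The members' profile is highest there, so the minimum itself favoured these 2 genes. H2-Ea-ps was at 0.127. Several members lay farther from their own median than these 10 genes: H2-Ab1 at 0.322, H2-DMa at 0.417, H2-Eb1 at 0.459, Ciita at 0.471 and H2-Oa at 0.913. For H2-Oa, 287 of the other genes were nearer. Cd3e, part of the CD3 complex of T cells, was at 6.25 and 9.69 FPKM in treated and untreated overexpressing tumours and at 28.5 and 12.8 FPKM in treated and untreated deficient tumours. With 4 libraries a profile holds few values, so many genes can come near it.

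Pgam2 and Tnni2 are skeletal muscle genes, and skeletal muscle markers went in the direction of the class II genes in both lines, while epidermis markers did so in the deficient line. The 15 skeletal muscle markers summed to 21.8 FPKM in treated and 122 FPKM in untreated overexpressing tumours, and to 501 FPKM in treated and 154 FPKM in untreated deficient tumours. Of them, 10 passed the size rule on the lower side with treatment in the overexpressing line, against 0.28% of all genes. In the deficient line 14 passed on the higher side, against 1.49% of all genes. The 12 epidermis markers found summed to 2.25 and 1.73 FPKM in treated and untreated overexpressing tumours and to 127 and 5.59 FPKM in treated and untreated deficient tumours, with 4 and 7 of them at 0 in the overexpressing libraries. The part of muscle or epidermis RNA in the class II values was not tested. The summed FPKM of all rows was 518464 and 523753 in treated and untreated overexpressing tumours and 488881 and 543926 in treated and untreated deficient tumours. Relative depths, read from low values, were 90.0% to 95.2% of that of the untreated deficient library.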

How the data were processed

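Tumour RNA was isolated on PureLink columns and made into strand-specific SureSelect libraries, per the labels' protocols. The authors deposited 1 table of FPKM values with RefSeq gene models, 23745 rows and 4 columns, 1 for each library. CASAVA 1.8.2, TopHat2 2.1.0, Cufflinks 2.2.1 and the mm10 build are named in the submitters' processing notes, without settings or the use of strand. A table line emptied for this work was not used. FPKM rests on alignment to the C57BL/6 reference, so BALB/c reads of polymorphic class II genes may have been lost in every library, which limits comparisons between genes more than between libraries. Totals of fragments are not recoverable, and relative depth came from genes under 0.1 FPKM, where the most frequent ratio between libraries, within 0.01, is that of single fragments. Without counts no counting interval was given.

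From the deposited FPKM, 799 symbols of short RNAs were left out, the row with the highest mean was kept for each symbol, and log2 ratios of FPKM + 1 were taken. A plain fold is a ratio of FPKM. No test was run: with 1 library a group there is no replicate spread, and a fit of line and treatment would take the difference of their responses as its error. The ratio and counting steps were tested on simulated data. Table starts were raised by 1 to count from base 1. All 10 members were named, and from each list its defining genes and those past the size rule. The members and lists were chosen with earlier results of these data known. Of the listed genes, Trac and Flg were not matched, and 3 were matched by an older symbol. The H2-Oa model overlaps that of BC051537, which was listed at 0 in every library. Alternatives were pseudocounts of 0.1 and 5, a minimum of 5 FPKM or none, rescaling to TPM or by median ratios, summed rows, and all genes without the epidermis and muscle lists. Python 3.11.15, numpy 2.4.6, pandas 2.3.3 and matplotlib 3.10.9 were used.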

Additional observations from a re-analysis of the deposited data

Results flagged for a closer look

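In 9 of the 10 class II genes the treated library was lower than the untreated one in the overexpressing line and higher in the deficient line, as were 18.5% of all 11800 genes of at least 1 FPKM. The difference of the log2 responses, overexpressing minus deficient, was −2.44 for H2-Eb1, −2.31 for H2-Ab1, −2.20 for H2-Aa and −2.10 for Cd74. It was −1.79 for H2-DMb2 and −1.67 for H2-DMb1, whose separate values are uncertain, −1.35 for Ciita, −1.26 for H2-DMa and −0.51 for H2-Oa. With 8 of 10 below −1, the members stood against 2.18% of all genes. The 4 genes of the peptide-binding and invariant chains lay beyond the others. Each response is a difference of single libraries, and whether the responses differ was not tested.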

How the results depend on the processing

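The number of members past the size rule stayed within 1.5 times the reported count under every alternative, at 6 to 8 higher in the deficient line, 7 to 9 lower between the treated libraries and in the difference of responses, and 0 with treatment in the overexpressing line and between untreated lines. With a pseudocount of 5, H2-DMb1 (0.96) and Ciita (0.76) no longer passed the rule in the deficient line, nor did Ciita between treated libraries (−0.88) or in the difference (−0.88). H2-Oa passed it between treated libraries with a pseudocount of 0.1 (−1.61) or TPM (−1.06), and in the difference with 0.1 (−1.14). Between untreated lines Ciita turned from −0.01 to 0.04 with TPM and 0.0049 with median ratios. TPM moved the median of all genes by 0.14 in the deficient line and −0.13 in the difference. The share of all genes past the rule, in the order overexpressing line, deficient line, treated libraries, untreated libraries and difference, was 0.332%, 1.84%, 2.76%, 0.218% and 2.70% as reported. It was 0.769%, 3.69%, 4.73%, 0.437% and 4.99% at a pseudocount of 0.1. At 5 it was 0.122%, 0.692%, 1.07%, 0.0699% and 0.932%. It was 0.169%, 0.956%, 1.44%, 0.111% and 1.44% with no minimum, and 0.532%, 3.61%, 4.49%, 0.361% and 4.87% with TPM. A minimum of 5 FPKM gave 0.103% between untreated libraries. No library could be left out, as each group has 1, and the values that involve the treated deficient library have no counterpart without it. No paired analysis was possible because each group has 1 library.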
